A study of Mus musculus with 8 samples.

Results

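Aminoacyl-tRNA synthetases are the enzymes that join each amino acid to its tRNA, and they were followed here in mouse corpus callosum, a white matter tract rich in myelinating oligodendrocytes. The list held 34 genes, 18 for cytosolic enzymes and 16 for their mitochondrial counterparts, whose names end in 2. Each gene was taken from the transcript cluster (the set of array probes for 1 gene) that the platform annotation gave to that gene alone. Of the 34 genes 32 were measured, 16 cytosolic and 16 mitochondrial, among 19938 genes with such a cluster in the series. Aars shares its cluster with another gene and Dars was not analysed here, so neither has a value below. Iars had a further cluster, and the one of the 2 with the higher mean level was used.

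The cuprizone group held 4 samples from male wild-type C57BL/6 mice given 0.25% cuprizone for 1 week. The control group held 4 samples from male wild-type C57BL/6 mice on normal diet. Cuprizone is a copper chelator that kills oligodendrocytes when eaten, and the labels give 8 weeks as the age of all these mice. The labels call the samples of a group biological replicates, and whether each came from 1 mouse or a pool is not given in the sources used here. RNA of each hand-dissected sample was hybridised to 1 Affymetrix Mouse Gene 1.0 ST array, and all values are log2 levels, so that a difference of 1 is a doubling.

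In the cytosol, synthetases charge the tRNAs used by the main ribosomes, and some of them are held together with scaffold proteins in the multisynthetase complex. A separate set of nuclear-encoded enzymes is imported into mitochondria and serves the translation of the few proteins encoded by mitochondrial DNA. Kars and Gars are known to supply both compartments from 1 gene and are counted as cytosolic here by their names. When uncharged tRNA builds up or other stresses block the initiation factor eIF2alpha, the transcription factor ATF4 is translated, and several cytosolic synthetase genes are known targets of ATF4. ATF4 acts with C/EBP partners on a composite site called the C/EBP-ATF response element.

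The promoters are shown because that site is the best known link between stress and synthetase genes. RefSeq windows (GRCm38.p6) of 300 bases, from 250 bases before the transcription start to 50 bases after it, were matched for 23 of the 32 measured members. The windows of Cars, Hars, Lars, Nars, Rars, Vars, Wars, Hars2 and Pars2 were not used here. The core of the element, TGATGNAA with N for any base, was searched on both strands as the only motif, and 3.97% of 32851 windows in the RefSeq table held it. Among measured members it was found in 4 of 9 windows of cytosolic genes, those of Iars, Tars, Gars and Yars, and in 0 of 14 genes for mitochondrial enzymes. The windows of Eprs, which had the largest fold change, of Tars and of Iars, which had the smallest of the cytosolic genes, follow in 5′ to 3′ direction of the gene, with the motif in capitals. Eprs lies on the plus strand at chr1:185362794-185363093, Tars on the minus strand at chr15:11399609-11399908 and Iars on the plus strand at chr13:49681880-49682179.
Eprs: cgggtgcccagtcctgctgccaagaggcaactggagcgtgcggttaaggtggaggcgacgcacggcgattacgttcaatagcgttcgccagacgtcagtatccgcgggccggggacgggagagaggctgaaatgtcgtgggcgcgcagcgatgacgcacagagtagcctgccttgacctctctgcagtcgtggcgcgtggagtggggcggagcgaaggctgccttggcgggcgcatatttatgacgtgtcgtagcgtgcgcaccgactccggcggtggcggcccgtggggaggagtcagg
Tars: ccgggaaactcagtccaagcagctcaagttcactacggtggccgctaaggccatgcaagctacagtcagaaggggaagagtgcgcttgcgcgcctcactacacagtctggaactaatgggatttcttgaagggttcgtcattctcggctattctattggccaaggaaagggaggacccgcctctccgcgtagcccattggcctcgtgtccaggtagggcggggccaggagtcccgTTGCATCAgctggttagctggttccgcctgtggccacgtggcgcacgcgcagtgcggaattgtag
Iars: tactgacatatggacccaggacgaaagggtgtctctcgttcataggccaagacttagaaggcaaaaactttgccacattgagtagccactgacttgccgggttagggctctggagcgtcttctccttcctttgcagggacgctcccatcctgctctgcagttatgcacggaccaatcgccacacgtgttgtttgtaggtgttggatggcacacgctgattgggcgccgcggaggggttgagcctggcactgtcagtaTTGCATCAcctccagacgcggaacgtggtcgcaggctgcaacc
The match begins 15 bases before the start in Tars and 7 bases after it in Iars, and in both it lies on the opposite strand, so that the gene's own strand, as printed, reads TTGCATCA. In Gars it begins 30 bases before the start and also lies on the opposite strand, with TTTCATCA on the gene's own strand. In Yars it begins 3 bases after the start and reads TGATGCAA on the gene's own strand. A match is a run of letters, not a measured binding site, and its absence from the Eprs window says only that these letters are not in these 300 bases.

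The question of the design is what 1 week of cuprizone does to transcript levels in the tract. Among the 16 cytosolic synthetases 4 rose and 0 fell at a limma adjusted p under 0.05, and among the 16 mitochondrial ones 0 rose and 0 fell. Over all 23410 clusters tested, 4.71% rose and 3.52% fell by the same rule. The 4 were Eprs, Lars, Wars and Rars, and their folds lay between 1.21 and 1.66. The median log2 fold change was 0.16 for the cytosolic and -0.0027 for the mitochondrial enzymes, against -0.0074 for all clusters tested. All 16 cytosolic fold changes were above 0, as were 8 of the 16 mitochondrial ones and 11106 of the 23410 clusters, although with each array centred on its median Iars lay at -0.017, and Aars2, Pars2, Tars2 and Wars2 also turned negative (-0.015 to -0.0022). At an unadjusted limma p under 0.05, 10 cytosolic and 2 mitochondrial members were higher and 0 of either were lower, where 11.1% of all clusters were higher and 9.68% lower.

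Eprs (transcript cluster 10352514) encodes the fused enzyme that charges the tRNAs of both glutamate and proline and belongs to the multisynthetase complex. Its level was 9.82, 9.89, 10.02 and 9.91 on cuprizone replicates 1 to 4, against 9.21, 9.22, 9.18 and 9.12 on control replicates 1 to 4. The lowest cuprizone array lay 0.60 above the highest control array. The means were 9.91 ± 0.08 in cuprizone and 9.18 ± 0.04 in control (SD, n = 4 each). The difference was 0.73 ± 0.06 on the log2 scale (SE; limma adjusted p = 2.62e-05), or 1.66-fold. By limma p it had rank 76 among the 23410 clusters. Eprs was the one member that rose at least 1.5-fold, which 1.4% of all clusters did.

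Lars (transcript cluster 10458607) encodes the leucine enzyme, a member of the complex that is also known as a leucine sensor for mTORC1. Its level was 8.78, 8.87, 8.93 and 9.02 on the cuprizone arrays and 8.63, 8.61, 8.56 and 8.35 on the control arrays. The groups did not overlap, and control replicate 4 was the lowest array. The log2 fold change was 0.36 ± 0.08 (limma adjusted p = 0.0139).

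Rars (transcript cluster 10385159) encodes the arginine enzyme of the complex. Its level was 10.32, 10.30, 10.44 and 10.30 on the cuprizone arrays and 10.10, 10.08, 10.09 and 9.98 on the control arrays. Within each group 3 arrays lay close together, with cuprizone replicate 3 above the rest of its group and control replicate 4 below the rest of its own. The log2 fold change was 0.28 ± 0.06 (limma adjusted p = 0.0120).

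Wars (transcript cluster 10402585) encodes the tryptophan enzyme, whose human counterpart is strongly induced by interferon gamma. Its level was 9.77, 9.78, 10.15 and 9.85 on the cuprizone arrays and 9.60, 9.51, 9.67 and 9.40 on the control arrays. The groups did not overlap, and 1 cuprizone array, replicate 3, stood well above the other three. The log2 fold change was 0.34 ± 0.09 (limma adjusted p = 0.0428), and the adjusted p was 0.0746 without cuprizone replicate 4, 0.0746 without control replicate 1, 0.0750 without cuprizone replicate 3, 0.102 without control replicate 2 and 0.119 without control replicate 4. In the interferon list 16 of 20 measured genes rose (median 1.03), and the list mean lay 1.78, 0.44, 1.75 and 1.01 above the control mean on cuprizone replicates 1 to 4, against -0.04 to 0.07 on the control arrays. From lowest to highest, the cuprizone arrays were replicates 1, 2, 4 and 3 by Wars level and replicates 2, 4, 3 and 1 by the interferon mean. The part of the interferon response in the Wars values was not tested.

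**Figure D1:**
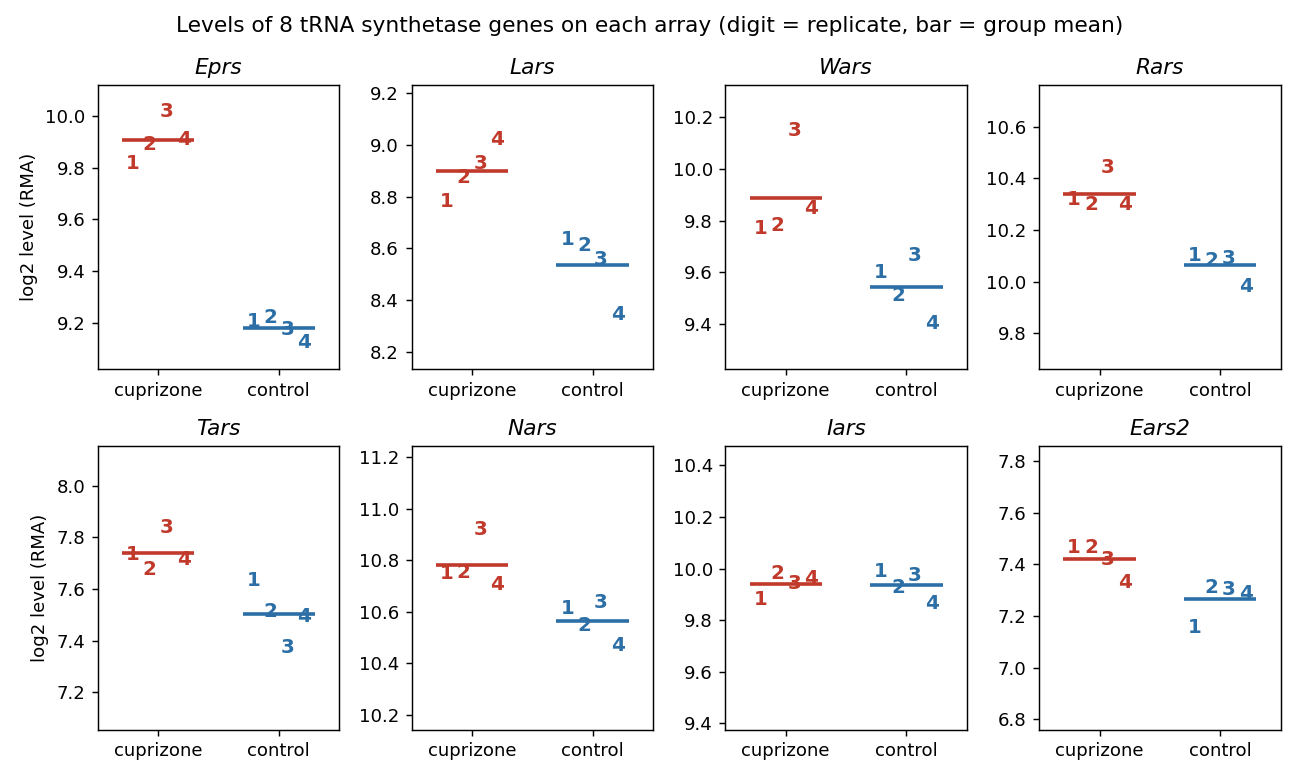
Log2 levels of 8 synthetase genes on the cuprizone arrays (red) and control arrays (blue), with each digit a replicate and each bar a group mean; every panel spans the same log2 range. Eprs is apart by 0.60 between the nearest arrays, Lars, Wars, Rars, Tars, Nars and Ears2 by less, and in Iars the groups overlap.

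Next to these 4, Tars and Nars were the cytosolic members nearest the threshold from the other side. Tars (threonine) had 7.73, 7.68, 7.84 and 7.71 on the cuprizone arrays and 7.63, 7.51, 7.37 and 7.49 on the control arrays, which differ by 0.24 ± 0.07 on the log2 scale (limma adjusted p = 0.0532). Nars (asparagine) had 10.75, 10.75, 10.92 and 10.71 on the cuprizone arrays and 10.61, 10.55, 10.63 and 10.47 on the control arrays, which differ by 0.22 ± 0.06 on the log2 scale (limma adjusted p = 0.0680). In both genes the groups did not overlap. The same held for Kars (lysine, 0.18) and Yars (tyrosine, 0.17), so that 8 of the 16 cytosolic members had all cuprizone arrays above all control arrays, and 1 of the 16 mitochondrial members did, where 8.24% of all clusters were apart in this direction and 7.09% in the other.

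The remaining cytosolic genes had small fold changes. Cars (cysteine) was at 0.15, Vars (valine) at 0.13, Sars (serine) at 0.11, Mars (methionine) at 0.11 and Qars (glutamine) at 0.075. Hars (histidine), Gars (glycine) and Iars (isoleucine) were nearest to 0, at 0.034, 0.023 and 0.0041. The 95% interval of Iars ran from -0.11 to 0.12 and that of Gars from -0.13 to 0.18, so a change as large as that of Eprs lay outside both. Iars had 9.88, 9.98, 9.94 and 9.96 on the cuprizone arrays and 9.99, 9.93, 9.97 and 9.86 on the control arrays, and its further cluster gave a log2 fold change of 0.033. Of the 4 measured genes with the motif shown above, Tars and Yars had log2 fold changes of 0.24 and 0.17, Gars and Iars those just given, and none passed the threshold. Of the 4 genes that rose, Eprs alone had a window to search, and that window held no motif. The other measured cytosolic genes with a window but no motif were Kars (0.18), Sars (0.11), Mars (0.11) and Qars (0.075). The part of the motif in the fold changes was not tested.

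**Figure D2:**
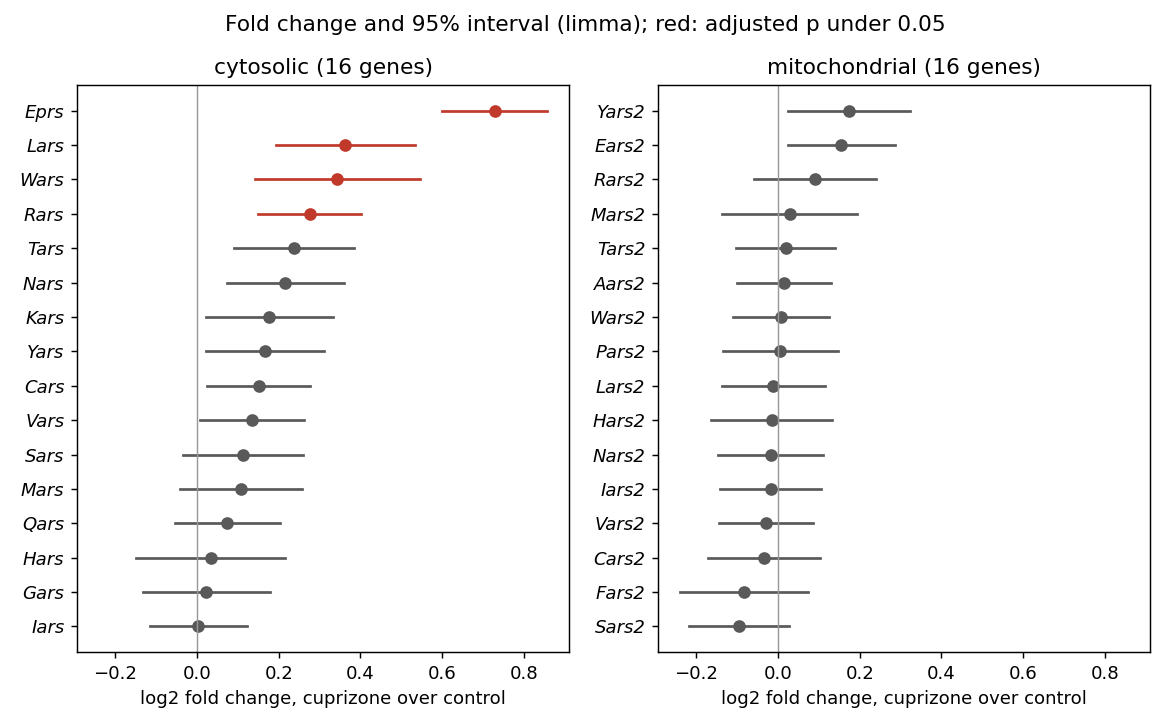
Log2 fold change of cuprizone over control for each measured synthetase, with its 95% limma interval, cytosolic genes on the left and mitochondrial genes on the right; red marks an adjusted p under 0.05. The 16 cytosolic points run from 0.0041 in Iars to 0.73 in Eprs, and the mitochondrial points from -0.095 in Sars2 to 0.17 in Yars2.

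Enzymes of the multisynthetase complex and free cytosolic enzymes were set side by side. Of the 7 measured complex enzymes 3 rose (Eprs, Lars and Rars), with a median log2 fold change of 0.18, and of the 9 free enzymes 1 rose (Wars), with a median of 0.15; the difference between these lists was not tested. Kars, Mars, Qars and Iars also sit in the complex and did not pass the threshold. Catalytic class divides the synthetases into those with a Rossmann fold (I) and those with an antiparallel fold (II). Of 9 cytosolic class I genes 3 rose and of 6 class II genes 0 rose, with medians of 0.151 and 0.145. This difference was not tested either. Eprs holds a part of each class and was counted in neither. Over all clusters 4.71% rose by the same rule. The groups did not overlap, with cuprizone higher, in 4 of 7 complex enzymes and 4 of 9 free ones. The same held for 4 of 9 class I genes, 3 of 6 class II genes and 8.24% of all clusters.

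None of the mitochondrial enzymes passed the limma threshold, 2 of 16 had an unadjusted p under 0.05, and the log2 fold changes lay between -0.095 and 0.17. Ears2 (glutamate) had 7.47, 7.47, 7.42 and 7.33 on the cuprizone arrays and 7.15, 7.31, 7.30 and 7.29 on the control arrays, which differ by 0.15 ± 0.06 on the log2 scale (limma adjusted p = 0.154), and was the mitochondrial member whose groups did not overlap. Yars2 (tyrosine) had 8.55, 8.62, 8.71 and 8.56 on the cuprizone arrays and 8.38, 8.50, 8.55 and 8.31 on the control arrays, which differ by 0.17 ± 0.07 on the log2 scale (limma adjusted p = 0.163). Rars2 (arginine) was at 0.091, Mars2 (methionine) at 0.029, Tars2 (threonine) at 0.019, Aars2 (alanine) at 0.015, Wars2 (tryptophan) at 0.0077 and Pars2 (proline) at 0.0062. Sars2 (serine) was the lowest at -0.095, followed by Fars2 (phenylalanine) at -0.082, Cars2 (cysteine) at -0.034 and Vars2 (valine) at -0.029. Iars2 (isoleucine), Nars2 (asparagine), Hars2 (histidine) and Lars2 (leucine) lay between -0.018 and -0.012. The upper end of the 95% interval was at most 0.32 among the 16 genes, below the lower end for Eprs, 0.60.

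Cytosolic and mitochondrial fold changes were compared directly for the 14 amino acids with both enzymes measured, Eprs serving for glutamate and for proline. On each array the mitochondrial log2 level was subtracted from the cytosolic one, and these differences were compared between diets by a two-sided exact permutation test, which for 70 ways to assign the arrays can give no p below 0.0286. The cytosolic enzyme had the larger fold change in 13 of 14 amino acids, with a median difference of 0.20. In 8 of them the cuprizone arrays all lay above the control arrays (exact permutation p = 0.0286), and in 0 of them the reverse was found. After Benjamini-Hochberg adjustment over the 14 comparisons these 8 stood at p = 0.05 by the exact test, the smallest value reached and not under the threshold. The 8 were proline (difference 0.72), glutamate (0.57), leucine (0.37), tryptophan (0.34), asparagine (0.23), serine (0.21), cysteine (0.18) and valine (0.16). Proline and glutamate share Eprs, so their differences are not separate results. For asparagine, serine, cysteine and valine neither enzyme passed the limma threshold by itself. How often other pairs of genes are apart in this way was not computed, so the count of 8 has no background. Group means reached 10.78 among the cytosolic genes and 8.745 among the mitochondrial ones, although the ranges overlapped. The part of signal level in the differences between the compartments was not tested.

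For leucine the difference, with the control mean at 0, was 0.24, 0.30, 0.37 and 0.59 on the cuprizone arrays and 0.01, 0.11, 0.05 and -0.17 on the control arrays. For tyrosine it was 0.01, -0.05, 0.03 and -0.02 on the cuprizone arrays and 0.08, -0.03, -0.06 and 0.01 on the control arrays, with a mean difference of -0.0083 (exact permutation p = 0.886). All cuprizone arrays thus lay above all control arrays for leucine, whereas for tyrosine the diets overlapped and every array was within 0.084 of 0. Threonine (0.22) and arginine (0.18) had an exact permutation p of 0.0571, and methionine (0.079), histidine (0.049) and isoleucine (0.022) had exact permutation p values between 0.4 and 0.6.

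**Figure D3:**
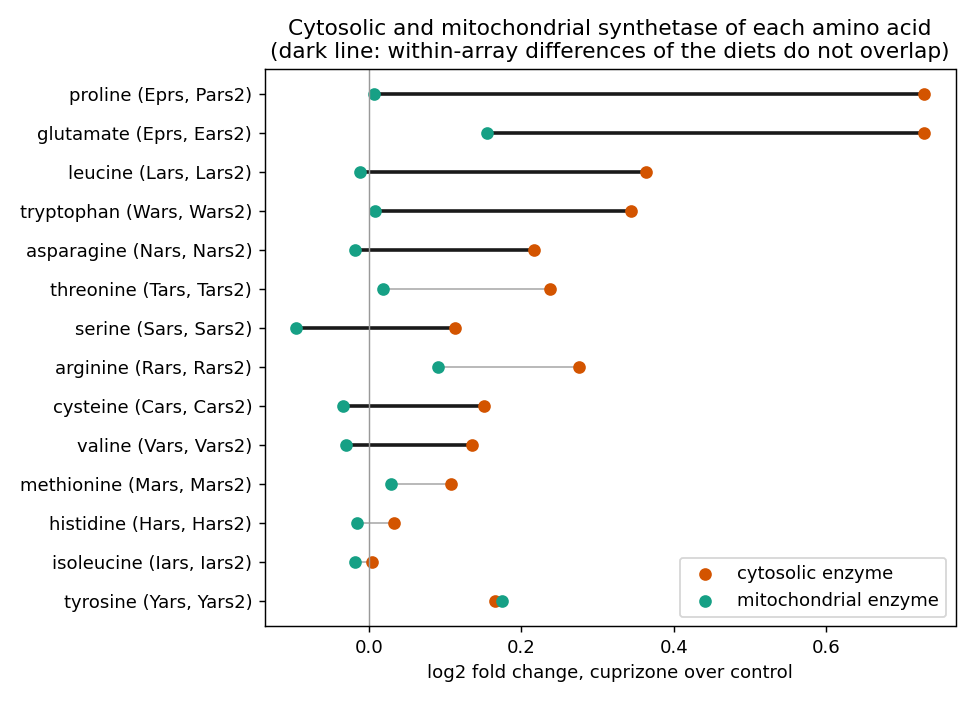
Log2 fold change of cuprizone over control for the cytosolic enzyme (orange) and the mitochondrial enzyme (green) of each of 14 amino acids, joined by a line that is dark where the within-array differences of the diets did not overlap. The lines are longest for proline and glutamate, both with Eprs as the cytosolic enzyme, and the points nearly coincide for tyrosine.

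Over the 16 cytosolic members the mean level, with the control mean at 0, was 0.13, 0.18, 0.31 and 0.17 on cuprizone replicates 1 to 4 and 0.056, 0.0059, 0.018 and -0.080 on control replicates 1 to 4. Over the 16 mitochondrial members it was -0.00015, 0.033, 0.0035 and 0.013 on the cuprizone arrays and 0.026, 0.018, -0.0063 and -0.038 on the control arrays. Cuprizone replicate 3 and control replicate 4 thus stood at the ends of the cytosolic means. Cuprizone replicate 3 was the highest of its group in 13 of the 16 cytosolic members, in 4 of the 16 mitochondrial members and in 26.5% of all clusters. Control replicate 4 was the lowest of its group in 12 of the 16 cytosolic members, in 5 of the 16 mitochondrial members and in 26.1% of all clusters. Without these 2 arrays, an alternative chosen after seeing the data, Eprs rose (0.67, limma adjusted p = 0.000727) and was the one member called, with Lars at 0.29 (limma adjusted p = 0.0813), Rars at 0.21 (limma adjusted p = 0.0894) and Wars at 0.21 (limma adjusted p = 0.153), while 535 clusters in all were called higher and 478 lower, against 1102 and 823 with all 8 arrays.

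Genes for cytosolic ribosomal proteins, the other part of the same translation machinery, had the same median log2 fold change, 0.16. Of 61 measured genes 6 rose and 0 fell, and the 4 with the smallest p were Rps4x (0.42 ± 0.06), Rps18 (0.38 ± 0.06), Rps27l, a p53-induced paralog (0.79 ± 0.14), and Rplp2 (0.29 ± 0.05). Their mean was 0.15, 0.09, 0.29 and 0.15 on the cuprizone arrays and -0.01, -0.01, 0.08 and -0.06 on the control arrays, so cuprizone replicate 3 was the highest array here too. Of 76 genes for mitochondrial ribosomal proteins 1 rose (Mrps6, 0.36 ± 0.08) and 0 fell, with a median of 0.022. With the mean of the cytosolic ribosomal genes as a covariate, Eprs was at 0.63 (limma adjusted p = 0.0110), Lars at 0.27 (limma adjusted p = 0.377), Rars at 0.15 (limma adjusted p = 0.439) and Wars at 0.016 (limma adjusted p = 0.959), and the cytosolic median was 0.032. The covariate itself separated the diets, and with it 119 of all clusters were called higher and 198 lower, against 1102 and 823 without it.

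**Figure D4:**
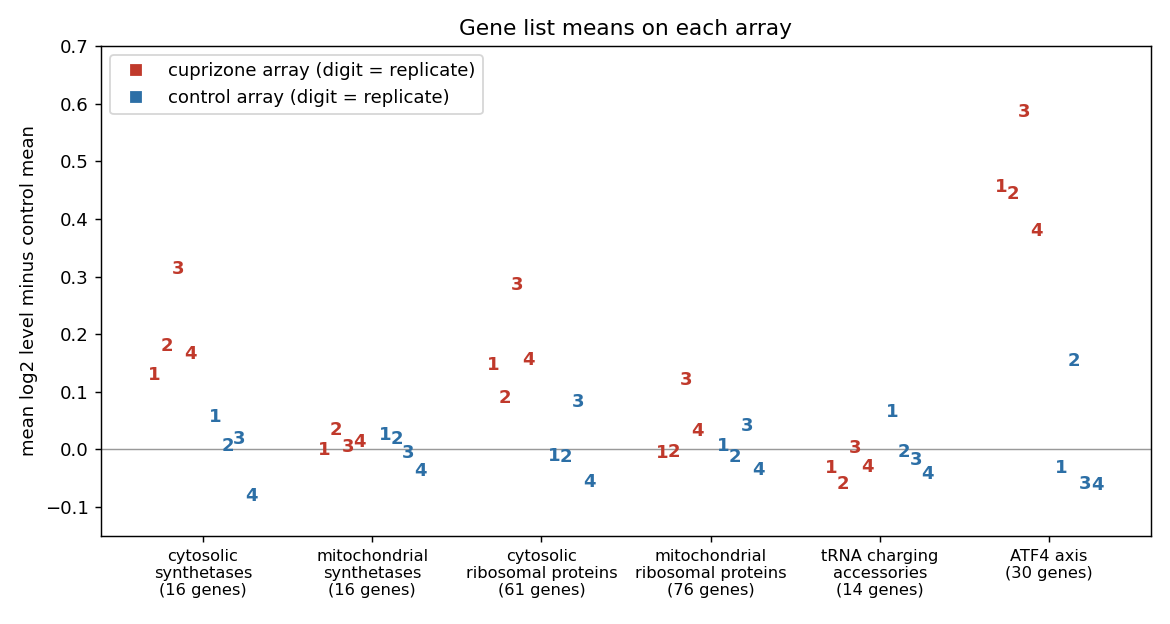
Mean log2 level of 6 gene lists on each array, as the difference from the mean of the control arrays, for cuprizone (red) and control (blue), with each digit a replicate. The cytosolic synthetases and cytosolic ribosomal proteins have cuprizone arrays between 0.09 and 0.31, the mitochondrial synthetases between -0.00015 and 0.033, and the ATF4 axis between 0.38 and 0.58.

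Other genes of tRNA charging, export and delivery were counted at the same limma threshold, by which 4.71% of all clusters rose and 3.52% fell. The cytosolic phenylalanine subunits Farsa and Farsb and the complex scaffold genes Aimp1, Aimp2 and Eef1e1 gave 0 of 5 called, with a median of 0.052, and the smallest p belonged to Eef1e1 (0.24 ± 0.08, limma adjusted p = 0.126) and Farsb (0.094 ± 0.06, limma adjusted p = 0.479). Of 14 charging accessories, such as the mitochondrial amidotransferase subunits and the CCA-adding enzyme, 0 were called and the median was -0.040, with the smallest p for the synthetase-like gene Tarsl2 (-0.19 ± 0.07, limma adjusted p = 0.123) and for Prorsd1 (0.18 ± 0.06, limma adjusted p = 0.125). Of 11 genes for tRNA export and delivery 1 rose, Xpot, the nuclear export receptor of tRNA, and the median was 0.072. Xpot had 9.53, 9.54, 9.53 and 9.53 on the cuprizone arrays and 9.40, 9.28, 9.08 and 9.24 on the control arrays, which differ by 0.28 ± 0.07 on the log2 scale (limma adjusted p = 0.0251).

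The ATF4 axis, a list of ATF4 itself, its partners and genes it is known to induce, had larger fold changes. Of 30 measured genes 17 rose and 1 fell (Ddit4, -0.40 ± 0.08), with a median log2 fold change of 0.36, and the list mean lay 0.46, 0.44, 0.58 and 0.38 above the control mean on the cuprizone arrays, against -0.06 to 0.15 on the control arrays. The smallest p belonged to Atf5 (1.22 ± 0.06), Cebpg (0.60 ± 0.05), Nupr1 (1.28 ± 0.12) and the cystine transporter gene Slc7a11 (1.30 ± 0.13). Among 7 measured eIF2alpha kinases and partners 2 rose, the interferon-induced kinase gene Eif2ak2 (1.33 ± 0.27, limma adjusted p = 0.0118) and the phosphatase subunit gene Ppp1r15b (0.24 ± 0.05, limma adjusted p = 0.0133), with a median of 0.056. Eif2ak4, which encodes GCN2, the kinase that senses uncharged tRNA, was at 0.0060 ± 0.05 (limma adjusted p = 0.967). Asns, the asparagine synthetase gene and a standard ATF4 target, was at 0.12 ± 0.07 (limma adjusted p = 0.383). Ddit4, Eif2ak4 and Asns were chosen after their values were seen.

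Marker transcripts of several cell types also differed between the diets. All 18 measured markers of mature oligodendrocytes fell (median -2.08), with the list mean between -2.57 and -1.82 on the cuprizone arrays and between -0.15 and 0.12 on the control arrays, and 3 of 12 genes of the progenitor list fell (median -0.14). These were Enpp6 and Bcas1, known from newly forming oligodendrocytes, and Olig1, expressed throughout the lineage; the other 9 genes did not pass the threshold. Of 15 microglial markers 13 rose (median 0.61). Their list mean lay between 0.50 and 0.88 on the cuprizone arrays and between -0.08 and 0.10 on the control arrays. It was highest on cuprizone replicate 3, as were the means of the cytosolic synthetases, both ribosomal protein lists and the ATF4 axis. The mitochondrial synthetase and astrocyte means were highest on cuprizone replicate 2, and the interferon mean on cuprizone replicate 1. Of 12 astrocyte markers 6 rose, led by Gfap (0.96) and Vim (1.74), and 3 fell, Slc1a2, Glul and Gja1 (median 0.099). None of the 14 neuronal, 7 endothelial, 8 lymphocyte and 7 choroid plexus markers was called in limma, with medians of -0.041, -0.14, 0.047 and -0.16 and with 1, 3, 1 and 0 of them at an unadjusted p under 0.05. The part of these cell markers in the synthetase values was not tested, and in dissected tissue fewer cells of a type and less RNA per cell cannot be told apart.

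The median level of the tested clusters lay between 7.44 and 7.49 on the 8 arrays, and arrays correlated at 0.9952 to 0.9971 within groups and at 0.9884 to 0.9944 between them. Mature oligodendrocyte markers had control means of 7.68 to 12.2. Markers of neurons, whose cell bodies lie mainly outside white matter, had group means of 8.56 to 12.84. With the control mean at 0, the choroid plexus list mean was -0.75, 0.44, -0.63 and 0.17 on cuprizone replicates 1 to 4. On control replicates 1 to 4 it was -0.43, 0.42, -0.78 and 0.79, so same-numbered arrays of both diets had the same sign in this list. Having 4 arrays per diet limits the precision throughout.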

How the data were processed

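The deposited table holds log2 levels of 28944 transcript clusters on 8 arrays (2.21 to 14.1), and the submitters' processing notes name Affymetrix Expression Console, RMA and Transcriptome Analysis Console, with no role for each. RMA as published equalises array distributions, so a shift shared by most transcripts would be hidden. Signal over background and batches were not analysed here. The 23410 clusters with at least 1 gene symbol in the platform annotation were fitted with limma (version 3.58.1, R 4.3.3; 2 groups, no covariate, moderated, two-sided), with Benjamini-Hochberg adjustment over all of them, and the fit was tested on simulated data. Errors after ± are SE for fold changes and SD for means.

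Every measured member is named, and of each other list up to 4 genes with the smallest p among those past the threshold, or 2 where none passed; interferon and cell marker lists are given mainly by counts. Values on every array are given for members past the threshold, and those of Tars, Nars, Iars, Ears2 and Yars2 were added after their values were seen. The members and the 22 lists were chosen with earlier results of these data known, so their counts and medians carry no test. In all 21 alternatives were run, 20 of them planned.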

Additional observations from a re-analysis of the deposited data

Results flagged for a closer look

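In 8 of 64 sets of 4 arrays (each member in each diet), 1 array stood apart from the other three by a larger part of the whole range than Dixon's 95% critical value, which chance exceeds in about 1 of 20 such sets. In the cuprizone group these were Kars (0.845 of the range, replicate 3 at 9.01 against 8.72 to 8.76), Rars (0.858, replicate 3 at 10.44 against 10.30 to 10.32) and Vars2 (0.859, replicate 2 at 8.09 against 7.99 to 8.00). In the control group they were Rars (0.84, replicate 4 at 9.98 against 10.08 to 10.10), Yars (0.849, replicate 4 at 9.24 against 9.39 to 9.41), Nars2 (0.833, replicate 4 at 8.47 against 8.57 to 8.59), Ears2 (0.846, replicate 1 at 7.15 against 7.29 to 7.31) and Lars2 (0.915, replicate 1 at 7.59 against 7.46 to 7.47). Of the 8, 2 were cuprizone replicate 3 standing high and 3 were control replicate 4 standing low, the arrays at the ends of the cytosolic list mean.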

How the results depend on the processing

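Eprs passed the threshold in all 21 alternatives, with log2 fold changes of 0.63 to 0.76, Rars in 19, Lars in 17 and Wars in 11, and Tars and Nars passed in 4 and 3. With the replicate block, 892 clusters rose, 636 fell, and Eprs, Wars and Rars were called, with Lars at an adjusted p of 0.0566. Deviations of same-numbered arrays from their group means correlated at -0.19, -0.02, 0.21 and -0.06. These values do not settle whether same-numbered arrays were paired in dissection or processing, which the labels do not say. Leaving out 1 array at a time gave 3 to 4 cytosolic calls, 0 mitochondrial ones, a cytosolic median of 0.12 to 0.18, 795 to 1122 clusters higher and 609 to 741 lower. The cytosolic count was 2 without moderation (632 clusters higher), and 1 both with the ribosomal covariate (119 clusters higher, 198 lower, cytosolic median 0.032) and without cuprizone replicate 3 and control replicate 4 (535 and 478). Under the other alternatives it was between 3 and 6.

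Changes of sign occurred in genes past no threshold. With the ribosomal covariate they were Gars -0.13, Iars -0.021, Kars -0.015, Yars -0.0033, Hars -0.24, Qars -0.038, Fars2 0.10, Nars2 0.026, Tars2 -0.0096 and Wars2 -0.017. Without cuprizone replicate 3 and control replicate 4 they were Gars -0.067, Iars -0.021, Hars -0.067, Pars2 -0.0049 and Wars2 -0.0048. With arrays centred on their medians they were Iars -0.017, Aars2 -0.0058, Pars2 -0.015, Tars2 -0.0022 and Wars2 -0.014. Quantile normalization once more gave Aars2 -0.0078, Pars2 -0.0066 and Wars2 -0.011, array weights gave Pars2 -0.0025, and leaving out replicate 2 of both diets gave Iars -0.014 and Tars2 -0.0079. Leaving out 1 array gave -0.024 to 0.058 for Gars, -0.046 to 0.073 for Hars, -0.021 to 0.024 for Iars, -0.010 to 0.029 for Aars2, -0.046 to 0.035 for Hars2, -0.042 to 0.0089 for Iars2, -0.028 to 0.021 for Lars2, -0.0099 to 0.076 for Mars2, -0.045 to 0.018 for Nars2, -0.033 to 0.045 for Pars2, -0.0032 to 0.050 for Tars2 and -0.0065 to 0.039 for Wars2. The cause was not tested in any of these. The clusters left out as dim (means under 5.98) held no member.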
